A study of Homo sapiens with 10 samples.

Results

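The loci of 8 genes of the MAX network were followed through 6 peak lists from RPMI-8402, an established human cell line from a T-cell acute lymphoblastic leukaemia (T-ALL). The members were chosen by name, and their peaks are those that share at least 1 bp with a fixed hg19 window around each gene. The windows measured 108 kb for MAX, 92 kb for MXI1, 28 kb for MNT, 120 kb for MGA, 16 kb for MLX, 38 kb for MXD1, 16 kb for MXD3 and 25 kb for MXD4, 443 kb in all. They held 70 of the 121294 peaks in the 6 lists.

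The series mapped protein and histone marks by CUT&RUN, in which an antibody brings a nuclease to its target and the DNA released beside it is sequenced. Its 10 libraries came from 4 sets, A to D, of the same cell line, with no treatment named in the labels, and 4 of them were control IgG libraries, which were not analysed here. The lists used were MYC of set C, MYC of set D, MYCN of set A, H3K4me3 of set B, and H3K27ac and H3K4me1 of set C. Only MYC had more than 1 library, and nothing in the labels says whether these came from separate cultures. The headers of both MYC lists name the same signal track, and the labels give the set D library as its own control, so the MYC lists may not be independent. The lists hold positions and no read counts or scores, so depth is unknown, a missing peak is not a measured absence, and no p-value is given. With no hg19 gene annotation at hand, T-cell marker genes were not checked, and peaks were assigned to windows and not to gene starts.

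MAX is the common partner through which MYC, MYCN and their antagonists bind DNA, most tightly at the E-box CACGTG. MYC-MAX pairs activate genes, whereas pairs of MAX with MXD1, MXI1, MXD3, MXD4 or MNT bring the SIN3 corepressor to the same sites. MGA is a large MAX partner found in a variant Polycomb complex, and MLX is a MAX-like protein that pairs with the glucose-sensing factors MLXIP and MLXIPL and with some MXD proteins and MNT. H3K4me3 marks active promoters, H3K27ac active promoters and enhancers, and H3K4me1 mostly enhancers and promoter flanks.

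The letters of the member promoters are shown because MYC and its antagonists compete for E-boxes. RefSeq (GRCh38.p14) gave 13 promoter sequences for the 8 members, each of 250 bases before and 50 after a gene start: 3 each for MXI1 and MGA, 2 for MAX and 1 for each other gene. Their coordinates belong to another build than the peaks, so no promoter was placed inside a peak. The canonical E-box CACGTG, which reads the same on both strands, was found in 3 of the 13 promoters (23.1%), those of MNT, MLX and MXD4, against 7.26% of all 35116 promoters in the table. Counted by gene, this was 3 of 8 members against 8.77% of all genes. The variant CACGCG, searched on both strands, was in 3 promoters too, of MXI1, MGA and MXD3, against 11.4% of all promoters, and no member promoter held both. Each of these motif shares rests on 3 promoters and no interval was computed for it, so no enrichment is read from them. Member promoters had a median G and C content of 66.3%, against 58.7% over the table, and the part of base composition in the motif shares was not tested. The 250 bases before the start follow for the promoters that hold a match there, 5′ to 3′ on the gene's strand, with the match in capitals. They are MNT (chr17:2401061-2401310, minus strand), MLX (chr17:42566850-42567099, plus strand), MXD4 (chr4:2262110-2262359, minus strand) and the middle of the 3 MGA promoters (chr15:41660155-41660404, plus strand), where the match CGCGTG is the variant read from the other strand.
MNT: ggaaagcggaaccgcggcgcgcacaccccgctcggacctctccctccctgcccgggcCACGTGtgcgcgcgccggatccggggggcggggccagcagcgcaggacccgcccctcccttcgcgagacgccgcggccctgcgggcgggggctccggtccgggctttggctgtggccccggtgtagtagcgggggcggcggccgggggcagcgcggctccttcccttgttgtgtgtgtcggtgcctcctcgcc
MLX: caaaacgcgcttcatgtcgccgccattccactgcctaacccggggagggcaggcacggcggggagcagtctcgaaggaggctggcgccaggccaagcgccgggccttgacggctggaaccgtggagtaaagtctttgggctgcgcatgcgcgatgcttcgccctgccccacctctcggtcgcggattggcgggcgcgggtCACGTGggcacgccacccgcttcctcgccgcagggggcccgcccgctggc
MXD4: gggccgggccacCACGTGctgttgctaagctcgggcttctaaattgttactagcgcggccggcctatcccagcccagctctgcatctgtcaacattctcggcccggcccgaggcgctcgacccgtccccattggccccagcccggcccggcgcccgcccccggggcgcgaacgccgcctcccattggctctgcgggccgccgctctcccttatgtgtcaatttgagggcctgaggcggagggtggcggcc
MGA: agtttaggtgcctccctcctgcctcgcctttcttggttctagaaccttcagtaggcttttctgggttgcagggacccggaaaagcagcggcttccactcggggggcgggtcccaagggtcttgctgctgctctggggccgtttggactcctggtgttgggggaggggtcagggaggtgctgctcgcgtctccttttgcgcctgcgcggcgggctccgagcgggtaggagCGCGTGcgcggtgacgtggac
The first base of the match lay 193 bases before the start in MNT, 50 in MLX, 238 in MXD4 and 21 in MGA. In MXI1 and MXD3 the variant began 9 bases after the start, outside the stretch printed.

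Every member window held H3K4me3 with MYC of both lists on the same region, and none held MYCN. There were 15 H3K4me3 regions in the windows, at least 1 per gene. Of these, 11 lay wholly inside a window and 4 crossed a window edge, 2 of them in the MLX window and 1 each in those of MGA and MXD4. Names in RefSeq place COASY and PSMC3IP beside MLX, TYRO3 and MAPKBP1 beside MGA, and HAUS3 and ZFYVE28 beside MXD4, so a region at an edge may belong to a neighbour. Inside the windows alone, 8 of 8 members still had a region with MYC of both lists, and 7 of 8 had one with H3K27ac, the exception being MXD4. By region, 9 of these 11 had MYC of both lists (81.8%), against 43.4% of all H3K4me3 regions of the series, and 7 of 11 had H3K27ac (63.6%), near the 66.2% of all.

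**Figure D1:**
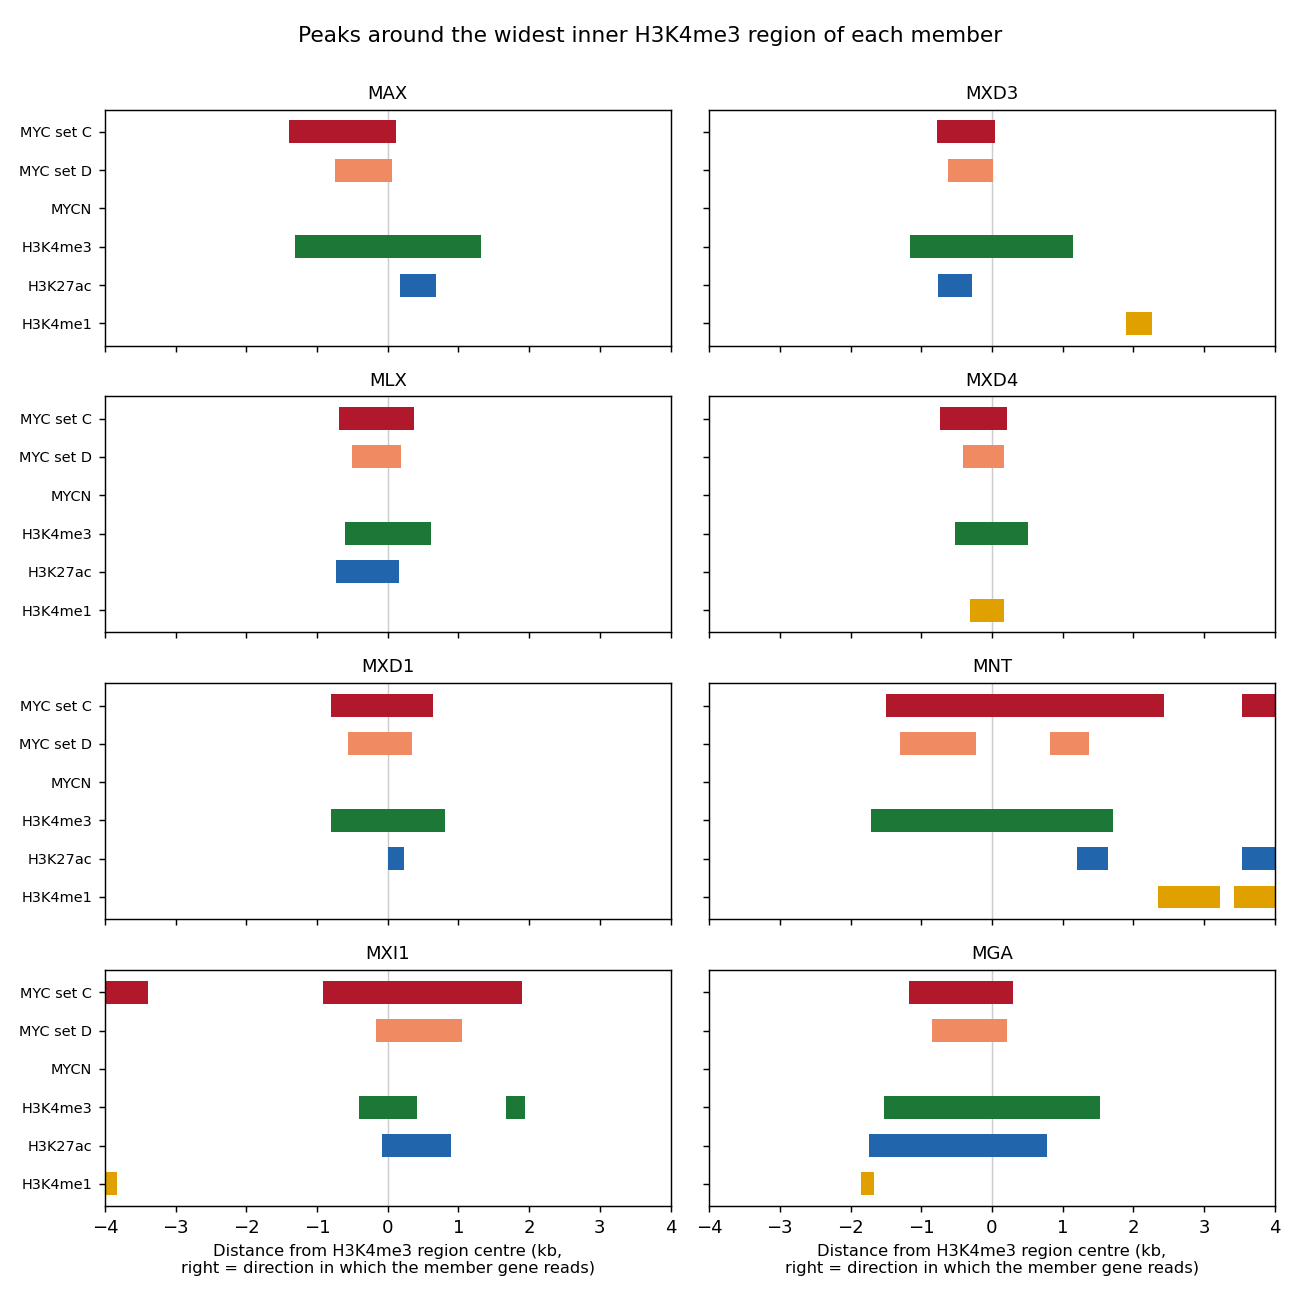
Peaks of the 6 lists around the widest H3K4me3 region lying wholly inside each member's window. The x axis is the distance in kb from the centre of that region, running to the right in the direction the gene reads, and each bar is a peak at its own width. MYC of both lists sits on every central H3K4me3 bar, and the MYCN row is empty in all 8 panels. On the central bar MXD4 shows H3K4me1 where the others show H3K27ac. H3K4me1 bars in other panels lie off the central bar.

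At MAX, MYC and H3K27ac both lay on H3K4me3 without touching. A lone H3K4me3 region of 2626 bp at chr14:65567702-65570327 carried a MYC region of 1512 bp in set C (chr14:65568903-65570414) and a MYC peak of 798 bp in set D (chr14:65568958-65569755). The H3K27ac region there, chr14:65568329-65568834, was 506 bp wide and touched neither. It ended 68 bp short of the MYC region of set C and 123 bp short of the set D peak. Along the gene's strand, MYC of set D was centred 342 bp before the middle of the H3K4me3 region and H3K27ac 433 bp after it.

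Elsewhere in the MAX window, set D alone listed a MYC peak of 342 bp at chr14:65511160-65511501. It lay 56.2 kb from the nearest H3K4me3 and inside an H3K27ac region of 939 bp, with no H3K4me1 anywhere in the window.

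MLX, the parallel partner, had its inner H3K4me3 region at chr17:40718794-40720009, 1216 bp wide. A MYC region of 1059 bp from set C (chr17:40718710-40719768), a MYC peak of 700 bp from set D (chr17:40718893-40719592) and an H3K27ac region of 894 bp all lay on it. MYC of set C covered 80.2% of its bases, set D 57.6% and H3K27ac 62.9%. Set C was centred 162 bp, set D 159 bp and H3K27ac 290 bp before the middle of the region, so that at MLX all 3 overlapped, unlike at MAX. The edge regions were met by 1 MYC list each. The one at chr17:40713777-40715218 overlapped MYC of set C, and the one at chr17:40728765-40730796 overlapped MYC of set D.

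Among the SIN3-binding antagonists, MXD1 had an H3K4me3 region of 1620 bp at chr2:70141057-70142676. MYC of set C was 1449 bp wide (chr2:70141059-70142507) and covered 89.4% of it, and MYC of set D was 902 bp wide (chr2:70141311-70142212) and covered 55.7%. H3K27ac on this H3K4me3 region was only 228 bp wide, at or above the width of 16.5% of its list. The wider acetylation of the window lay 28.5 kb and 30.3 kb away, in H3K27ac regions of 576 and 1267 bp at chr2:70171177-70171752 and chr2:70172967-70174233. Both overlapped H3K4me1, neither overlapped H3K4me3, and neither held MYC of either list. The enhancer-like pair of marks was thus listed in the MXD1 window without MYC. Over the series, MYC of at least 1 list met 34.6% of all H3K27ac regions and 15.9% of all H3K4me1 regions, each mark taken singly. Its share of regions with both marks was not computed.

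At MXI1, H3K4me3 was narrow and MYC was wide. Its H3K4me3 regions measured 822 bp (chr10:111985351-111986172) and 269 bp (chr10:111987441-111987709), at or above the width of 31.4% and 10.5% of the list. The MYC region of set C across both was 2818 bp wide (chr10:111984847-111987664), at or above 97.7% of its list, and the set D peak of 1220 bp (chr10:111985589-111986808) was at or above 98.6% of its own. H3K27ac of 985 bp joined them on the wider region. MYC also had a pair of sites away from H3K4me3. At chr10:111970426-111971489 set C listed a region of 1064 bp and set D a peak of 641 bp, 13.9 kb and 14.0 kb from the nearest H3K4me3 and with none of the 3 marks. RefSeq gives 3 promoters for MXI1, and whether this site lies at another of its starts was not tested. At chr10:111981345-111982377 set C alone listed 1033 bp of MYC, over an H3K4me1 region of 382 bp.

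MXD3 had 2 H3K4me3 regions of unlike content. The region at chr5:176737788-176740094, 2307 bp wide, carried MYC of 816 bp in set C (chr5:176738904-176739719), MYC of 641 bp in set D (chr5:176738928-176739568) and H3K27ac of 479 bp. The MYC region of set C was narrow for its list, at or above 14.1% of it. The region at chr5:176729806-176731675, 1870 bp wide, overlapped no other list, and it was the only one of the 15 without MYC. RefSeq names PRELID1 and LMAN2 as the neighbours of MXD3, and whether that region belongs to MXD3 was not tested.

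MXD4 was the member without H3K27ac on any H3K4me3 region wholly inside its window. Its inner H3K4me3 region of 1035 bp at chr4:2263355-2264389 carried MYC of 952 bp in set C (chr4:2263661-2264612) and of 585 bp in set D (chr4:2263700-2264284). No H3K27ac region lay inside the MXD4 window, and the nearest was 19.1 kb from the set C region and 19.4 kb from the set D peak. An H3K4me1 region of 483 bp at chr4:2263700-2264182 was listed there instead, covering 46.7% of the H3K4me3 bases. It was the 1 region of 15 to overlap H3K4me1 (6.67%, exact interval 0.169 to 31.9%), against 14.4% of the whole list. In all, 4 member regions lacked H3K27ac, and 1 of these 4 overlapped H3K4me1 against 9.26% of such regions over the list. At the window edge, an H3K4me3 region of 1833 bp (chr4:2242446-2244278) had MYC of both lists and an H3K27ac region that itself lay outside the window.

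MNT, a broadly expressed MAX partner, had the widest member regions of H3K4me3 and MYC. Its H3K4me3 region of 3429 bp at chr17:2302410-2305838 was at or above 96.5% of the list. A MYC region of 3933 bp in set C (chr17:2301690-2305622), at or above 99.3% of its list, covered 93.7% of it. Set D split the same stretch into peaks of 552 bp (chr17:2302758-2303309) and 1082 bp (chr17:2304344-2305425). H3K27ac there was 434 bp wide and covered 12.7%, meeting the smaller of the set D peaks and not the larger, which lay 1.43 kb from it. A further H3K4me3 region of 1791 bp at chr17:2295350-2297140 had no H3K27ac at all. It nevertheless carried MYC of 2140 bp in set C (chr17:2295543-2297682) and of 1442 bp in set D (chr17:2295812-2297253), the set D peak being at or above 99.6% of its list. Between the H3K4me3 regions, set C alone listed MYC of 898 bp at chr17:2299695-2300592 over H3K27ac and H3K4me1. It was the 1 member region of set C (6.67%, 0.169 to 31.9%) with H3K27ac and H3K4me1 but no H3K4me3, against 12.8% of the set C list, and set D had 0 of 15, against 16.6%. MYC of set C covered 24.9% of the MNT window, the highest share of the 8, and that of set D 11.0%.

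MGA, the Polycomb-associated partner, had the member region with the largest share of acetylated bases. H3K27ac of 2516 bp at chr15:41951377-41953892, at or above 99.7% of its list, covered 75.4% of an H3K4me3 region of 3056 bp (chr15:41951590-41954645). MYC of 1463 bp in set C (chr15:41951948-41953410) covered 47.9% and MYC of 1059 bp in set D (chr15:41952266-41953324) 34.7%. H3K4me1 of 187 bp touched the outer end of the acetylated stretch. At the other end of the window, an H3K4me3 region of 1134 bp (chr15:42066362-42067495) crossed the edge with H3K27ac and MYC of both lists.

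**Figure D2:**
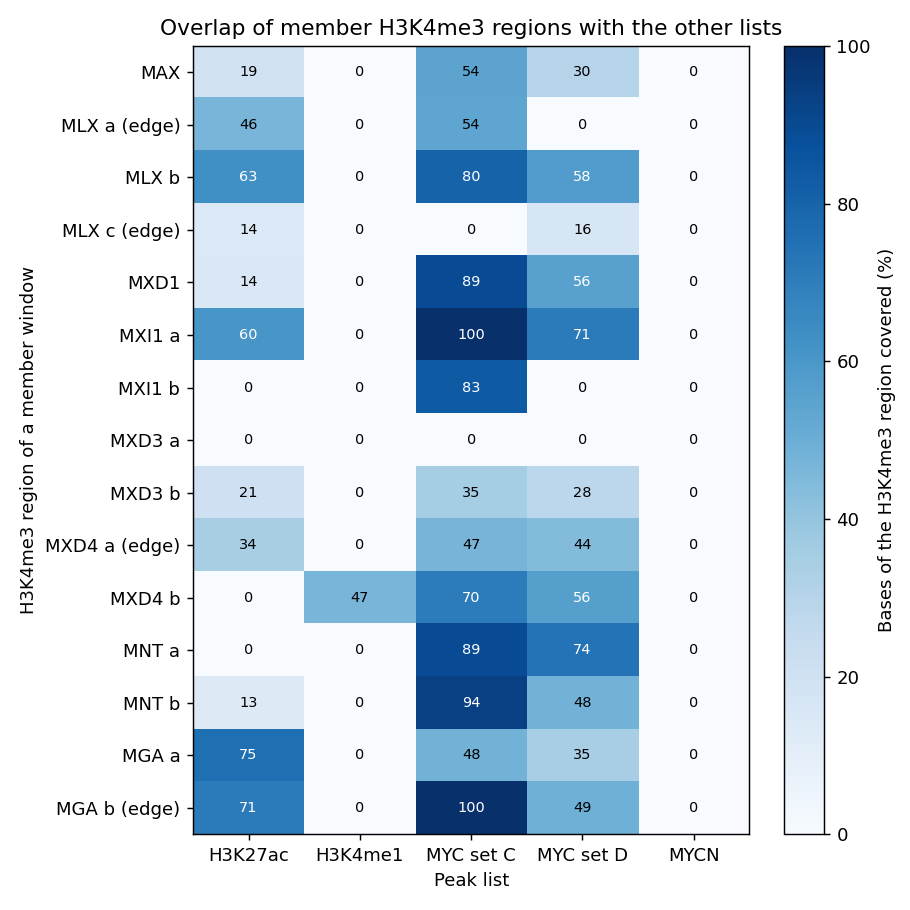
Percent of the bases of each of the 15 member H3K4me3 regions (rows, lettered a to c along the chromosome, with those crossing a window edge named as edge) that is covered by each other list (columns). MYC of set C covers from 0 to 100%, H3K27ac is lowest in MXI1 b, MXD3 a, MNT a and MXD4 b, and the MYCN column is 0 throughout.

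The 15 regions were then set beside all 13852 H3K4me3 regions of the series. MYC of set C overlapped 13 of 15 (86.7%, exact 95% interval 59.5 to 98.3%), against 47.9% of the whole list. MYC of set D overlapped 12 of 15 (80.0%, 51.9 to 95.7%), against 72.3%. At least 1 MYC list met 14 of 15 (93.3%, 68.1 to 99.8%), against 76.7%, and both met 11 of 15 (73.3%, 44.9 to 92.2%), against 43.4%. H3K27ac overlapped 11 of 15 (73.3%, 44.9 to 92.2%), against 66.2%. This count depends on the settings. H3K27ac covered the centre of 5 of the 15 regions, but the count stayed at 11 under a rule on the shared part of the shorter peak. It met 3 of 10 when only the wider peaks of each list were kept. The shares for MYC of set D and for H3K27ac were near the background, and only those for set C and for both MYC lists had intervals wholly above it. Regions of a window share their neighbourhood and wide regions meet peaks more easily, so these intervals cover counting error only.

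Beside wide regions alone, most member shares lay nearer the background. Of the 15 regions, 10 were wider than the list median of 1341 bp. Among the 10, MYC of at least 1 list met 9 (90.0%), against 92.3% of all regions at or above that width, and both lists met 7 (70.0%), against 59.8%. Taken singly, MYC of set C met 8 (80.0%, exact interval 44.4 to 97.5%), against 62.5%, and MYC of set D also 8, against 89.6%. H3K27ac met 8 (80.0%), against 83.3%. Every one of these background values lay within the interval of the member share.

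Split by overlap with H3K27ac at 1 bp or more, regions with and without it both held MYC. All 11 regions with H3K27ac held MYC of at least 1 list, against 88.5% of such regions in the series. Of the 4 without H3K27ac, 3 held MYC (75.0%, 19.4 to 99.4%), against 53.7%, and 2 held both lists, in MNT and MXD4, against 21.1%. In bases, MYC of set C covered 58.5% of the member H3K4me3 sequence, against 34.6% over the list, and MYC of set D 37.5% against 27.3%. H3K27ac covered 28.6% against 32.0%, and H3K4me1 1.82% against 2.37%. Per H3K4me3 base the members thus had a larger MYC share than the list as a whole and a slightly smaller H3K27ac share. These base shares carry no interval and were not matched for width, so they are description only.

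**Figure D3:**
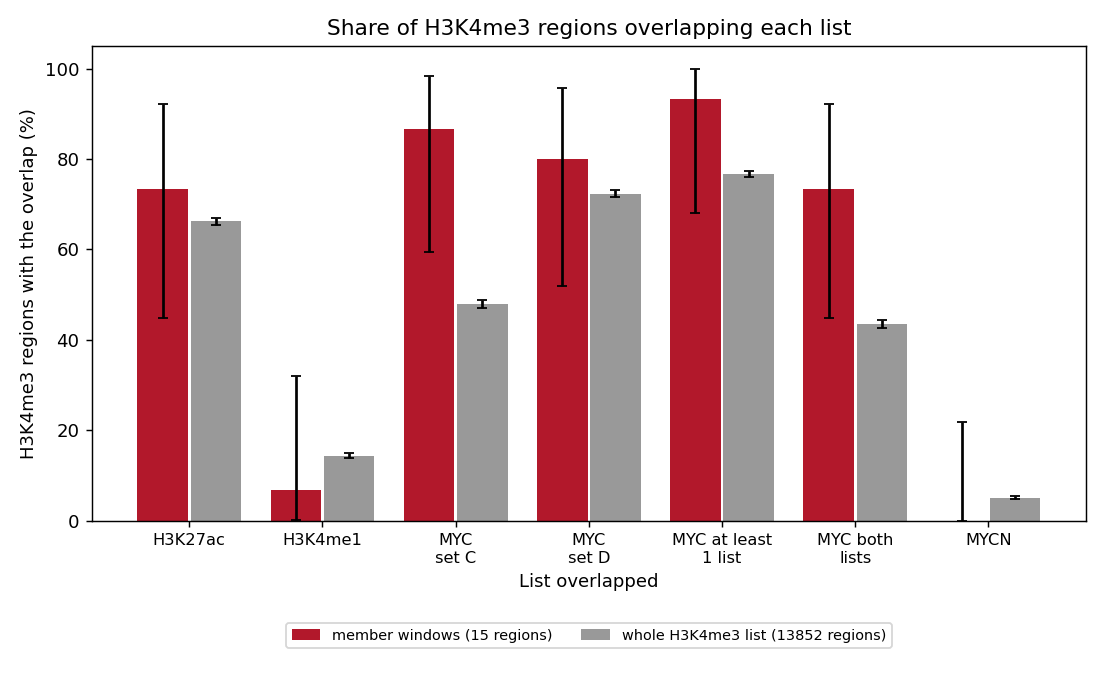
Percent of H3K4me3 regions that overlap each list (x axis), for the 15 regions of the member windows (red, left) and the whole list of 13852 (grey, right), with exact 95% intervals as bars. The member share stands highest above the whole list for MYC of set C (86.7% and 47.9%) and is 0 for MYCN, where the whole list has 5.10%.

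MYCN was listed at none of the members. It overlapped 0 of 15 H3K4me3 regions, which allows a share of up to 20.0% by a floor of 3 counts (21.8% by the exact interval), against 5.10% of the whole list, so the absence is not distinguishable from the background at this number of regions. Among the 10 wider member regions it met 0, against 7.85% of wide regions over the list. It also met 0 of 15 MYC regions in set C, against 6.51%, and 0 of 15 MYC peaks in set D, against 4.72%. The nearest MYCN peak lay 80.3 kb from the MXD1 window, at chr2:70056477-70056670, and 8.07 Mb from that of MXI1, with the other windows between 233 kb (MXD4) and 1358 kb (MAX). The median distance from a member H3K4me3 region to MYCN was 658 kb, against 599 kb over all H3K4me3 regions. The member median lay inside the quartiles of the whole list, 166 and 1728 kb.

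Most member MYC peaks overlapped H3K4me3. Each MYC list had 15 peaks in the windows. H3K4me3 overlapped 12 of those in set C (80.0%, exact interval 51.9 to 95.7%), against 65.9% of the whole set C list, and 13 of those in set D (86.7%, exact interval 59.5 to 98.3%), against 56.0%. H3K27ac overlapped 10 in set C (66.7%, 38.4 to 88.2%), against 78.2%, and 9 in set D (60.0%, 32.3 to 83.7%), against 70.7%. H3K4me1 overlapped 4 in set C (26.7%, 7.79 to 55.1%), against 26.6%, and 1 in set D (6.67%, 0.169 to 31.9%), against 28.2%, that one at MXD4. The set C shares, and those of set D for H3K27ac and H3K4me1, lay within counting error of their list. Only the set D share for H3K4me3 had an interval wholly above its list. The windows were drawn around genes and the lists span the genome, so the choice of windows may raise overlap with H3K4me3, which was not tested. None of the 3 marks was met by 1 peak of each list, the shared MXI1 site, against 8.10% in set C and 10.5% in set D.

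Most member MYC sites were named in both MYC lists, which may not be independent. Of the set C regions 12 of 15 (80.0%) overlapped set D, near the 82.5% of the whole list. Of the set D peaks 13 of 15 (86.7%, exact interval 59.5 to 98.3%) overlapped set C, against 45.1%. All 13 of these set D peaks lay wholly inside their set C region, which was from 1.27 to 7.12 times as wide, with a median of 1.63, a ratio between different callers. Sites in set C alone were at MXI1, MNT and an edge of the MLX window, and those in set D alone at MAX and the other MLX edge. The names in the set C list give the stretch of highest signal in a region, and its centre lay in a set D peak at 12 of 15 member regions (80.0%), against 75.7% of all.

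The position of MYC within the widest inner H3K4me3 region of each member varied. As the gene reads, the highest-signal stretch of set C lay before the centre in 6 of 8 members, from 537 bp before the centre at MNT to 588 bp after it at MXI1, with MXD1 the other exception at 119 bp after. In set D 7 of 9 peaks, of which MNT has 2, were centred before it, as was H3K27ac in 3 of 7 regions. Strand came from RefSeq and assumes that the region belongs to the member gene. No such count was made over the whole list, so no side is read as preferred.

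Width ranks were taken within a list, since callers differ between lists. Member MYC peaks of set D were from 333 to 1442 bp wide with a median of 700 bp, and 13 of 15 exceeded the list median of 422 bp. Set C regions ran from 816 to 3933 bp with a median of 1072 bp, and 7 of 15 exceeded the list median of 1165 bp. MNT and MXI1 had the widest member peaks in both MYC lists. At the MYC-bearing region of MXD3 the MYC width stood at or above 77.0% of the list in set D and 14.1% in set C, and at the inner region of MXD4 at or above 71.4% and 27.5%. H3K4me3 regions ran from 269 to 3429 bp, H3K27ac regions from 228 to 2516 bp and H3K4me1 regions from 174 to 1027 bp.

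**Figure D4:**
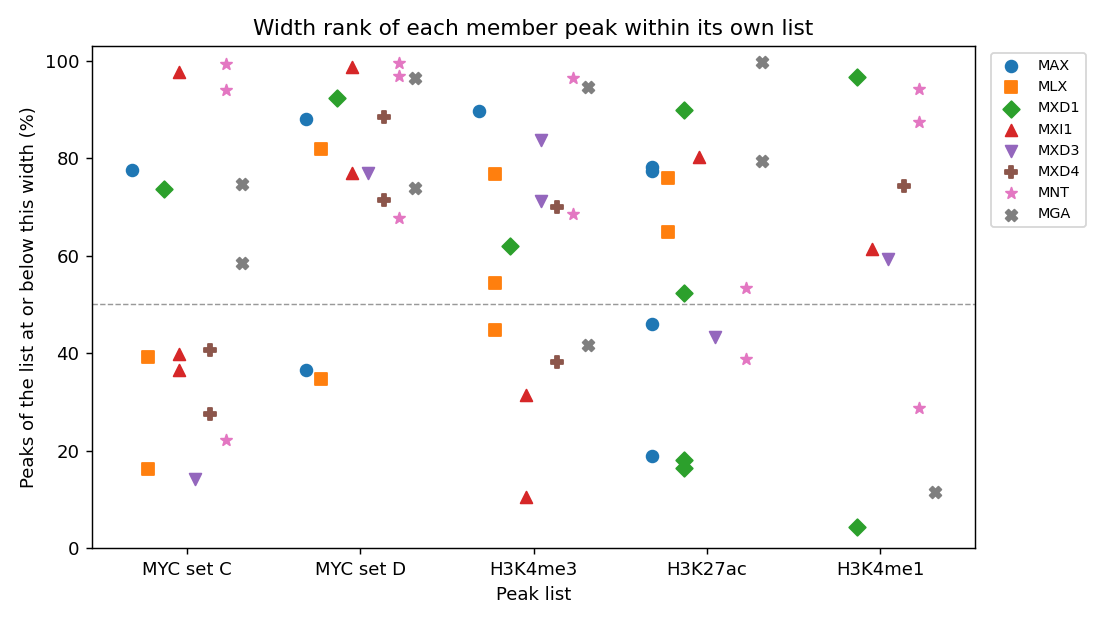
Width rank of every member peak within its own list (y axis, percent of the list at or below that width), by list (x axis) and gene (symbol), with the dashed line at the list median. In set D 13 of 15 MYC peaks lie above the line, in set C 7 of 15, and MYCN has no member peak to plot.

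The H3K27ac and H3K4me1 regions were spread unevenly among the genes. Of 16 H3K27ac regions in the windows, 9 overlapped H3K4me3 (56.2%, exact interval 29.9 to 80.2%), against 23.2% of the whole list. MYC of at least 1 list overlapped 10 of the 16 (62.5%, 35.4 to 84.8%), against 34.6%. The 6 without MYC were all in the windows of MAX and MXD1, 3 in each. H3K4me1 met 4 of the 16 (25.0%, 7.27 to 52.4%), against 45.3%. Of 9 H3K4me1 regions, 1 overlapped H3K4me3 (11.1%, 0.281 to 48.2%, at MXD4), against 5.18%. MYC overlapped 4 (44.4%, 13.7 to 78.8%), against 15.9%, and H3K27ac overlapped 4 (44.4%, 13.7 to 78.8%), against 50.4%. For each of the shares of H3K4me1 regions, and for that of H3K27ac regions with H3K4me1, the list value lay within the interval. The shares of H3K27ac regions with H3K4me3 and with MYC had intervals wholly above the list value. MAX and MLX had no H3K4me1 region, while MNT had 3. Per Mb the windows held 33.9 H3K4me3 regions, against 4.70 over the span of all peaks, 36.1 H3K27ac regions against 13.4, and 20.3 H3K4me1 regions against 13.4. The windows were drawn around genes and the whole span includes gene-free stretches, so a higher density was built into the choice of windows. The same choice may raise the shares that overlap H3K4me3 and MYC, which was not tested.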

How the data were processed

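CUT&RUN peak lists of 6 libraries were used, and the IgG libraries were not analysed here. The authors deposited peak starts and ends (hg19, with MACS2 and SEACR, per the submitters' processing notes). MYCN peaks are cutruntools output for all fragments at a q below 0.01, H3K4me3 comes from MACS2, MYC of set D from MACS2 with reads unpaired, and MYC of set C from SEACR in stringent mode with paired reads, per the file headers. No header accompanies H3K27ac or H3K4me1, and the aligner is not given in the sources used here. Callers and thresholds change how many peaks a list holds and how wide they are, so width ranks and shares were read within a list.

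Peaks on chromosomes 1 to 22 and X were kept and given from base 1. Overlap meant at least 1 bp, and the intervals given for overlap shares are exact Clopper-Pearson 95% intervals. No test was run, because no target but MYC has a second library. The members, windows and lists were chosen with earlier results of these data known. All 8 members are described, with their widest peaks and every peak that carries a comparison. Other genes of the pathway and cell-type markers, planned for an hg19 annotation, were not analysed. Alternatives were the rule for lying in a window, windows widened by 10 kb on each side, the wider peaks of each list, the overlap rule, joining H3K4me3 within 1 kb and each MYC list alone. Overlap code was tested on simulated data and against bedtools 2.31.1. Software was Python 3.11.15 with scipy 1.17.1, numpy 2.4.6 and, for plots, matplotlib 3.10.9.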

Additional observations from a re-analysis of the deposited data

How the results depend on the processing

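Of 124 alternative values, 93 stayed within 1.5 times the reported count or, for coverage, within its binomial interval. The 93 include the MYCN values, which were all 0. The values are counts and coverages with no direction, so none could be reversed. MYC of at least 1 list at an H3K4me3 region was found in 8 of 8 members without MYC replicate 1, without MYC replicate 2, and when counted by the centre of the H3K4me3 region. MYCN stayed at 0 under every alternative run. With only peaks wholly inside a window, the covered share of window bases was 4.32% for MYC of set C, 2.39% for MYC of set D, 4.52% for H3K4me3 and 2.44% for H3K27ac, against 4.71%, 2.49%, 5.28% and 2.73% as reported, and 7 of 11 H3K4me3 regions met H3K27ac. Peaks centred in the window covered 4.60% in set C and 2.43% in set D. With windows widened by 10 kb, coverage was 3.85% for set C, 1.94% for set D, 4.66% for H3K4me3 and 1.28% for H3K4me1 (0.995% as reported), and there were 25 H3K27ac and 16 H3K4me1 regions. With only the wider peaks of each list, fewer enter by construction: set C kept 7 regions in 5 members and 3.16% coverage, H3K27ac 10 regions and 2.24%, set D covered 2.37%, H3K4me3 4.39% and H3K4me1 0.861%. The 10 H3K4me3 regions left then met set C in 5 cases, set D in 7, H3K27ac in 3 and H3K4me1 in 0. Of the 7 set C regions 5 met H3K4me3, 3 H3K27ac and 1 H3K4me1, and of the 13 set D peaks 8 met H3K4me3 and 5 H3K27ac. Counted by centre, H3K27ac met 5 H3K4me3 regions in place of 11, and the cause was not tested. No paired analysis was possible because the replicate numbers follow accession order, do not come from the labels and so pair no samples, and because the results come from no test.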
